A study of Homo sapiens with 14 samples.

Results

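The genes described are CCR4-NOT and PAN deadenylase genes: CNOT1, CNOT2, CNOT3, CNOT4, CNOT6, CNOT6L, CNOT7, CNOT8, PAN2 and PAN3. They were chosen by symbol and matched to Ensembl identifiers, and 8 of the 10 have a row among the 18006 genes of the count table used here. CNOT6L and PAN3 have none there and were not analysed here. All 8 measured genes passed the filter on low counts and are among the 12080 genes tested. RNA was sequenced from HEK 293, an established human embryonic kidney cell line, in 14 libraries of 5 groups. These were control (labelled wild type, n = 3), CFIm25 knockdown (n = 2), CFIm25 overexpression (n = 3), CFIm68 knockdown (n = 3) and CFIm68 overexpression (n = 3). Knockdown was by small interfering RNA delivered with a lipid reagent. The sources used here do not give the treatment of the controls, the siRNA sequences, the overexpression construct or the number of cell clones.

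Deadenylases shorten the poly(A) tail of messenger RNA, usually the first step of its decay. PAN2-PAN3 is known for trimming long tails, and CCR4-NOT for removing the rest and for silencing targets of microRNAs, to which the TNRC6 proteins recruit it. CNOT1 is the scaffold of CCR4-NOT. CNOT2 and CNOT3 form its NOT module, CNOT6 or CNOT6L and CNOT7 or CNOT8 are its nucleases, and CNOT4 is a ubiquitin ligase that in human cells is held loosely, if at all. NUDT21 is the gene of CFIm25 and CPSF6 that of CFIm68. Both proteins belong to the cleavage factor that binds the sequence UGUA in the RNA and takes part in choosing where the poly(A) tail is added. By its title, the series is about the part of CFIm in alternative polyadenylation, signalling and microRNA biogenesis.

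The recognition motif of CFIm25, written with T for U, was counted in the longest annotated 3' UTR of each gene. The transcripts are those of GENCODE 29 and the sense strand alone was searched. TGTA occurred 10.9 times per kilobase in CNOT1, 11.1 in CNOT2, 9.51 in CNOT6, 8.12 in CNOT8, 7.21 in PAN2, 6.95 in CNOT7 and 6.81 in CNOT4, against a median of 4.92 over 11901 tested genes with an annotated 3' UTR. These 7 genes stood between the 71.0 and the 94.4 percentile of tested genes. CNOT3 had 2.07 per kilobase and stood at the 19.6 percentile. In the last 150 bases of that UTR, 7 of the 8 genes had at least 1 TGTA, as did 67.9% of tested genes with a UTR that long, and CNOT3 had 0. The hexamer AATAAA of the poly(A) signal, which can overlap the other motif, lay in the last 50 bases in 4 of 8 (CNOT2, CNOT3, CNOT7 and CNOT8), against 63.5% of those tested genes. A match describes the letters and is not a site. The TGTA nearest the annotated 3' end is shown in capitals, in lower case surroundings and 5' to 3', for the 2 NOT module genes, which moved in opposite directions in the knockdowns, and for 2 nuclease genes with different patterns. Coordinates are those of hg38, and all 4 genes lie on the plus strand.
CNOT2 (chr12:70354954-70354983): ggcttcttctcttTGTAataaagtagaaaa
CNOT3 (chr19:54154968-54154997): aggctgtgcatccTGTActcacgtgagagg
CNOT6 (chr5:180578376-180578405): aataattcattaaatgtcttgttgccTGTA
CNOT8 (chr5:154876747-154876776): atgtttttaatttTGTAaaataaagatttc
The motif lies 23 bases before the annotated 3' end in CNOT2, 30 in CNOT8, 0 in CNOT6 and 697 in CNOT3. Longest 3' UTRs were 1007 bases in CNOT1, 1078 in CNOT2, 1354 in CNOT8, 1386 in PAN2, 1930 in CNOT3, 2643 in CNOT4, 4205 in CNOT6 and 5756 in CNOT7. Counts per gene carry no information on which poly(A) site was used.

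Library totals ran from 15822467 to 33895308 counts. The 5 knockdown libraries had at least 22464083 counts, a depth that 1 of the other 9 reached. NUDT21 stood at 52.9 to 54.6 CPM (the count scaled to library size, with TMM factors) in CFIm25 knockdown, 500.4 to 536.6 in control and 671.4 to 782.4 in CFIm25 overexpression. CPSF6 stood at 40.5 to 42.5 CPM in CFIm68 knockdown, 262.4 to 273.9 in control and 717.1 to 749.9 in CFIm68 overexpression. Both follow the labels. NUDT21 also ran at 223.8 to 242.3 CPM in CFIm68 knockdown, and CPSF6 at 525.9 to 540.3 in CFIm25 knockdown. Of markers of HEK 293, KRT8, KRT18 and NEFL were at 146 CPM or more in every library, and NEFM, PAX2 and LHX1 were at most 4.93. Of 5 markers of blood, liver and endothelial cells 0 passed the filter on low counts. The labels do not say that replicates are separate cultures, and the p-values then cover no more than the library-to-library spread, part of which may be technical.

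In controls, CNOT1 was the most abundant of the genes per length and CNOT4 the least. On the scale of CPM per kilobase of annotated exon, the level was 64.1 ± 5.03 (SD, n = 3) for CNOT1, 26.4 ± 1.55 for CNOT3 and 18.5 ± 0.836 for CNOT7. CNOT6 followed at 17.3 ± 0.879 and PAN2 at 16 ± 1.89. Lower levels were those of CNOT8 at 11 ± 0.341, CNOT2 at 7.24 ± 0.206 and CNOT4 at 2.12 ± 0.128. CNOT7, CNOT6 and PAN2 are neighbours in this order whose libraries overlap. CNOT1 was first and CNOT4 last in all 5 groups. Exon lengths are the union over all annotated transcripts, so the scale is low for genes with many rare exons. CNOT4 rested on as few as 183 reads in a library, and the other genes on at least 746.

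**Figure D1:**
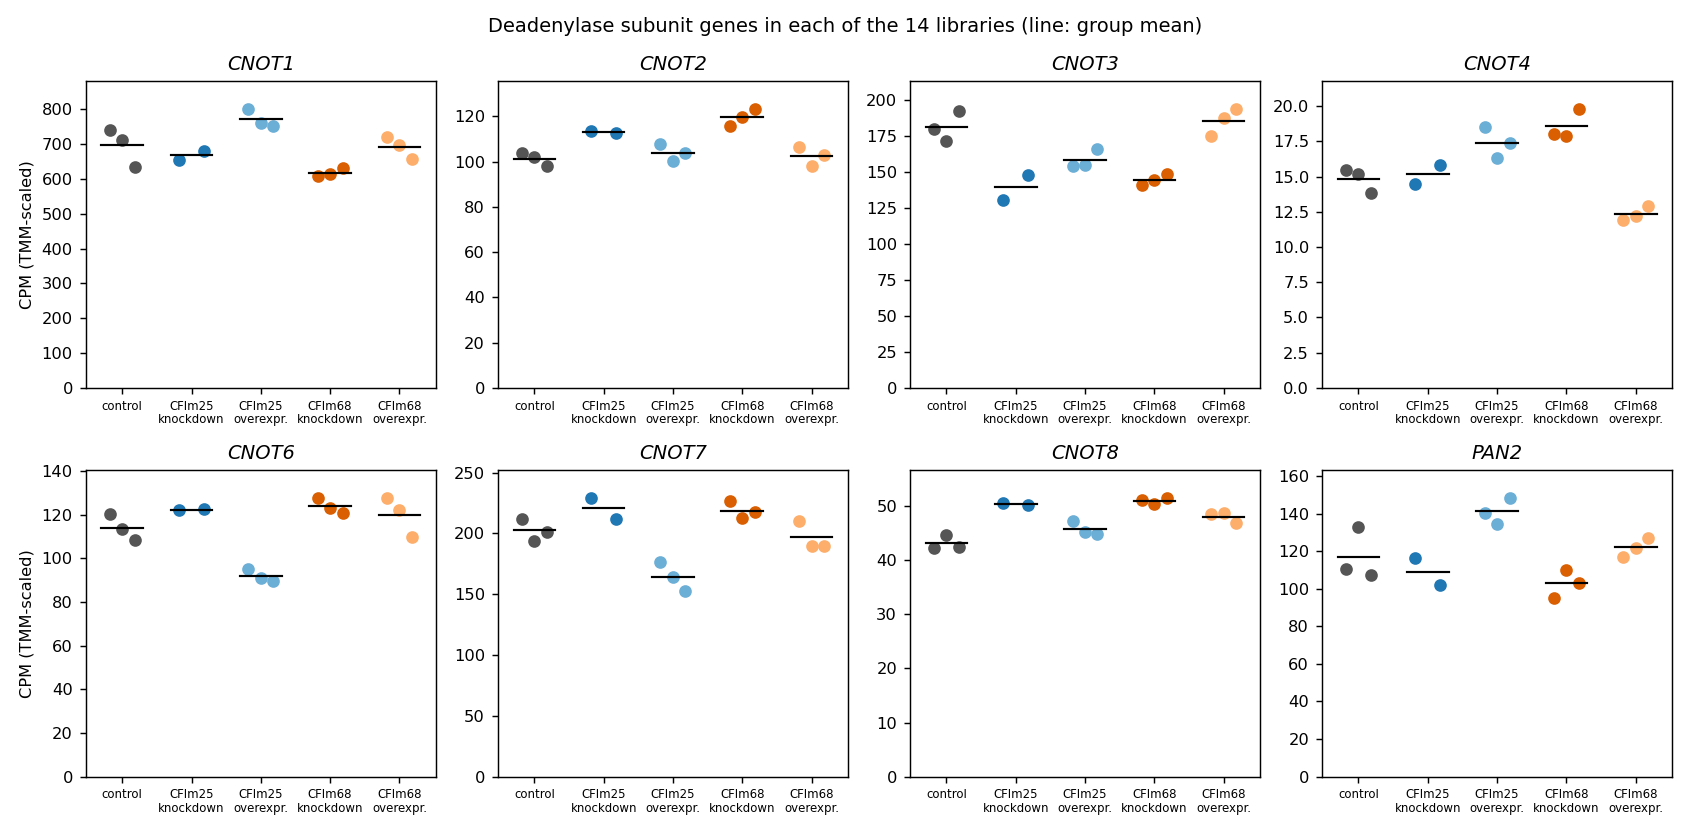
Each panel shows 1 gene, with TMM-scaled CPM on the vertical axis from 0, the 5 groups on the horizontal axis, a point per library and a line at the group mean. CNOT3 is lower in both knockdowns than in control, and CNOT6 and CNOT7 are lowest in CFIm25 overexpression, where CNOT6 spans 89.8 to 95.2 CPM.

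Changes against control were small. None of the 8 genes reached a log2 change of 0.5, and the largest was the 1.3-fold fall of CNOT3 in CFIm25 knockdown. For that reason no gene of similar pattern is named. In CFIm25 knockdown 2 of the 8 rose (CNOT2 and CNOT8) and 1 fell (CNOT3), where 24.4% of all tested genes were higher and 23.2% lower. CFIm68 knockdown had 3 higher (CNOT2, CNOT4 and CNOT8) and 3 lower (CNOT1, CNOT3 and PAN2), against 28.3% and 28.1% of all tested genes. CFIm25 overexpression had 3 higher (CNOT1, CNOT4 and PAN2) and 3 lower (CNOT3, CNOT6 and CNOT7), against 27.7% and 29.1%. With CFIm68 overexpression 1 was higher (CNOT8) and 1 lower (CNOT4), against 14.5% and 15.4%. The counts lie near those shares. The median absolute log2 change of the 8 was 0.11, 0.21, 0.22 and 0.05 in the same order, and that of all tested genes 0.23, 0.25, 0.27 and 0.15. All 4 comparisons share the control libraries.

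**Figure D2:**
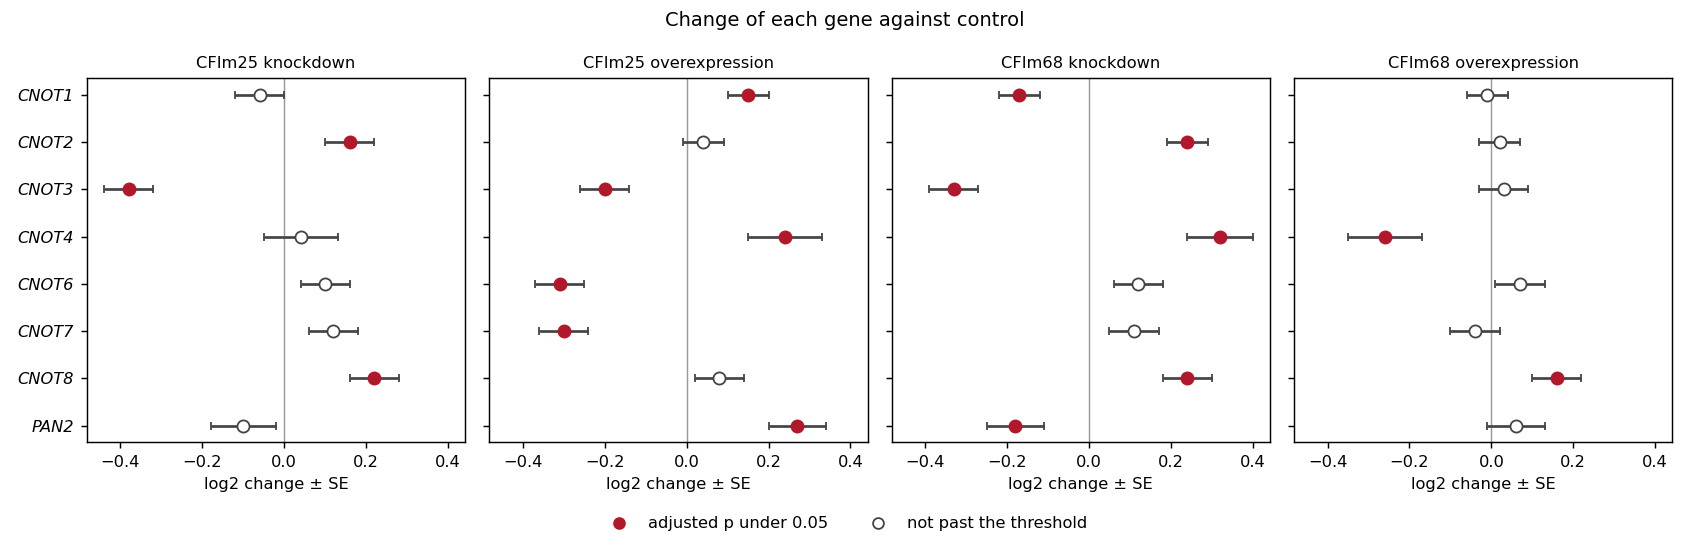
Log2 change against control ± SE on the horizontal axis for the 8 genes, 1 panel per perturbed group, with filled points for an edgeR adjusted p under 0.05. CNOT3 lies at -0.38 and -0.33 in the knockdowns, and CNOT6 and CNOT7 at -0.31 and -0.30 in CFIm25 overexpression.

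CNOT3, a NOT module subunit, fell in both knockdowns. It stood at 180.3, 171.7 and 192.9 CPM in control, 130.8 and 148.3 in CFIm25 knockdown and 140.9, 144.8 and 148.8 in CFIm68 knockdown. All 5 knockdown libraries lie below all 3 controls. The log2 change was -0.38 ± 0.06 (SE) in CFIm25 knockdown (edgeR's quasi-likelihood test, Benjamini-Hochberg adjusted p = 2.2e-05) and -0.33 ± 0.06 in CFIm68 knockdown (edgeR adjusted p = 1.9e-05). CFIm25 overexpression gave 154.1, 154.8 and 166.4 CPM, also below every control (-0.20 ± 0.06, edgeR adjusted p = 0.0046). In CFIm68 overexpression CNOT3 was at 175.2, 187.9 and 194.1 CPM, within reach of the controls (0.03 ± 0.06). By group mean the order was CFIm25 knockdown, CFIm68 knockdown, CFIm25 overexpression, control and CFIm68 overexpression, and the libraries of the first pair and of the last pair overlap. Exons of CNOT3 (chromosome 19, 54137717 to 54155708, hg38) share 548 bases with LENG1 on the opposite strand.

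A check on shifts shared by stretches of chromosome took the median deviation of 50 neighbouring tested genes out of every library. With these medians removed, the fall of CNOT3 was -0.42 with CFIm25 knockdown and -0.29 with CFIm68 knockdown, and both passed. Its change in CFIm25 overexpression became -0.12 and missed the threshold (edgeR adjusted p = 0.12), and that in CFIm68 overexpression became 0.25 and passed (edgeR adjusted p = 0.00545). The cause of such shifts was not tested.

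CNOT2, the partner of CNOT3 in the NOT module, went the other way. It stood at 103.8, 101.9 and 98.1 CPM in control, 113.7 and 112.6 in CFIm25 knockdown, and 115.8, 119.8 and 123.3 in CFIm68 knockdown. The knockdown libraries lie above every control. The log2 change was 0.16 ± 0.06 in CFIm25 knockdown (edgeR adjusted p = 0.025) and 0.24 ± 0.05 in CFIm68 knockdown (edgeR adjusted p = 0.00029). The first of these missed the threshold without control replicate 3 (edgeR adjusted p = 0.074), without CFIm25 knockdown replicate 1 (0.11) or without its replicate 2 (0.085). Overexpression libraries spanned 100.1 to 107.9 CPM with CFIm25 and 98.0 to 106.6 with CFIm68, and overlap control (0.04 ± 0.05 and 0.02 ± 0.05). CNOT2 (chromosome 12, 70242994 to 70354993) shares 295 exonic bases with LINC01481 on the opposite strand.

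CNOT1, the scaffold on which the complex is built, had no change against control beyond -0.17. Control libraries spanned 635.2 to 741.5 CPM, with replicate 3 the lowest. CFIm68 knockdown stood at 608.9, 613.8 and 630.1 CPM, just under the lowest control (-0.17 ± 0.05, edgeR adjusted p = 0.0062). CFIm25 overexpression stood at 800.6, 759.1 and 751.7 CPM, just above the highest (0.15 ± 0.05, edgeR adjusted p = 0.017). Neither call is firm: the fall missed the threshold without control replicate 1 (-0.12, edgeR adjusted p = 0.069) and the rise without control replicate 3 (0.09, edgeR adjusted p = 0.16). With neighbouring medians removed the value in CFIm68 knockdown was 0.04 and that in CFIm25 overexpression 0.27. CFIm25 knockdown (654.3 and 679.7 CPM) and CFIm68 overexpression (656.9 to 719.9 CPM) overlapped control and did not pass. CNOT1 (chromosome 16, 58519951 to 58629886) shares 1219 exonic bases with SETD6 and AC009118.3 on the opposite strand, and the strand setting of the counting is not stated.

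CNOT4, the ubiquitin ligase, spread farthest between groups but is also the least abundant. It stood at 15.5, 15.2 and 13.8 CPM in control, 14.5 and 15.8 in CFIm25 knockdown, 18.5, 16.3 and 17.4 in CFIm25 overexpression, 18, 17.9 and 19.8 in CFIm68 knockdown, and 11.9, 12.2 and 12.9 in CFIm68 overexpression. CFIm68 overexpression lies below all other libraries. Both CFIm68 knockdown (0.32 ± 0.08, edgeR adjusted p = 0.0016) and CFIm25 overexpression (0.24 ± 0.09, edgeR adjusted p = 0.021) lie above control and overlap each other. CNOT4 fell in CFIm68 overexpression (-0.26 ± 0.09, edgeR adjusted p = 0.031). These 3 calls were all lost with neighbouring medians removed, at 0.12 for CFIm68 knockdown, -0.03 for CFIm25 overexpression and -0.10 for CFIm68 overexpression. In CFIm25 knockdown the same step turned 0.04 into -0.24 (edgeR adjusted p = 0.035). The call in CFIm25 overexpression was also lost without control replicate 3 or CFIm25 overexpression replicate 1 (0.19 each). That in CFIm68 overexpression was lost without control replicate 1 (edgeR adjusted p = 0.11) or 2 (0.084), or without CFIm68 overexpression replicate 1 (0.086) or 2 (0.084). CNOT4 lies on chromosome 7, 135361795 to 135510127, and shares no exonic base with another annotated gene. A processed pseudogene, CNOT4P1, could take part of its reads.

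CNOT7 and CNOT8 are close paralogs that encode alternative nucleases of the complex, and they moved differently. CNOT7 stood at 212.2, 194.0 and 201.3 CPM in control and 176.8, 163.9 and 152.9 in CFIm25 overexpression. All 3 overexpression libraries lie below all controls (-0.30 ± 0.06, edgeR adjusted p = 7.6e-05), and the value was -0.35 with neighbouring medians removed. CNOT7 was at 229.5 and 212.1 CPM in CFIm25 knockdown (0.12 ± 0.06, overlapping control), 226.7, 212.4 and 217.5 in CFIm68 knockdown (0.11 ± 0.06, just above control) and 210.6, 189.6 and 190.1 in CFIm68 overexpression (-0.04 ± 0.06), and passed in none of them. In CFIm68 knockdown CNOT7 passed with the replicate number as a block (edgeR adjusted p = 0.027) and in a fit to those libraries alone (0.021). CNOT7 (chromosome 8, 17224964 to 17246878) shares 243 exonic bases with VPS37A on the opposite strand. It has processed pseudogenes, CNOT7P1 and CNOT7P2, that could take part of its reads.

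CNOT8 rose in both knockdowns. Its levels were 42.3, 44.7 and 42.5 CPM in control, 50.6 and 50.3 in CFIm25 knockdown, and 51.1, 50.5 and 51.6 in CFIm68 knockdown. The knockdown libraries lie above every control and close to each other. The log2 change was 0.22 ± 0.06 in CFIm25 knockdown (edgeR adjusted p = 0.0042) and 0.24 ± 0.06 in CFIm68 knockdown (edgeR adjusted p = 0.00067). With neighbouring medians removed the first missed the threshold (0.12, edgeR adjusted p = 0.13) and the second passed (0.20, edgeR adjusted p = 0.0031). In CFIm68 overexpression CNOT8 was at 48.6, 48.8 and 46.9 CPM, above control (0.16 ± 0.06, edgeR adjusted p = 0.045), a call also lost under 5 of 6 other settings and without any of 5 of the 6 libraries. CFIm25 overexpression gave 47.2, 45.2 and 44.8 CPM (0.08 ± 0.06), just above the controls, and did not pass. CNOT8 lies on chromosome 5, 154857553 to 154876793, and shares 163 exonic bases with FAXDC2 on the opposite strand.

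CNOT6, a nuclease of the other catalytic family in the complex, fell in CFIm25 overexpression. It stood at 120.2, 113.5 and 108.7 CPM in control and at 95.2, 90.9 and 89.8 in CFIm25 overexpression (-0.31 ± 0.06, edgeR adjusted p = 4.4e-05). These 3 libraries are the lowest of the 14. CFIm25 knockdown (122.0 and 122.9 CPM, 0.10 ± 0.06), CFIm68 knockdown (127.9, 123.1 and 120.7 CPM, 0.12 ± 0.06) and CFIm68 overexpression (127.9, 122.1 and 110.0 CPM, 0.07 ± 0.06) did not pass. The knockdown libraries lie just above the controls, and those of CFIm68 overexpression overlap them. Removing neighbouring medians moved all of these: CFIm25 overexpression to -0.14, which missed the threshold (edgeR adjusted p = 0.074), and the knockdowns to 0.27 with CFIm25 (edgeR adjusted p = 0.0028) and 0.28 with CFIm68 (edgeR adjusted p = 0.00047), which passed. CFIm68 knockdown also passed with the replicate number as a block (edgeR adjusted p = 0.027), in a fit to those libraries alone (0.025) and without control replicate 1 (0.16, edgeR adjusted p = 0.039). CNOT6 lies on chromosome 5, 180494412 to 180578405, and shares no exonic base with another annotated gene. Its paralog CNOT6L was not analysed here, so reads of the pair cannot be compared.

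PAN2, the nuclease of the PAN complex, rose in CFIm25 overexpression. It stood at 110.3, 132.6 and 107.4 CPM in control, where replicate 2 is the highest, and at 140.5, 134.7 and 148.5 in CFIm25 overexpression. The overexpression libraries lie above every control (0.27 ± 0.07, edgeR adjusted p = 0.0015), and the change was 0.44 with neighbouring medians removed. CFIm68 knockdown stood at 95.3, 110.2 and 102.9 CPM and overlapped control. Its fall (-0.18 ± 0.07, edgeR adjusted p = 0.026) missed the threshold without control replicate 2 (-0.08, edgeR adjusted p = 0.33) or without CFIm68 knockdown replicate 1 (-0.14, edgeR adjusted p = 0.14) or 3 (-0.19, edgeR adjusted p = 0.053). CFIm25 knockdown (116.3 and 101.8 CPM, -0.10 ± 0.08) and CFIm68 overexpression (117.1, 121.8 and 127.2 CPM, 0.06 ± 0.07) did not pass. PAN2 (chromosome 12, 56316223 to 56334053) shares 114 exonic bases with CNPY2 on the same strand, so part of its reads may be split between the genes.

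**Figure D3:**
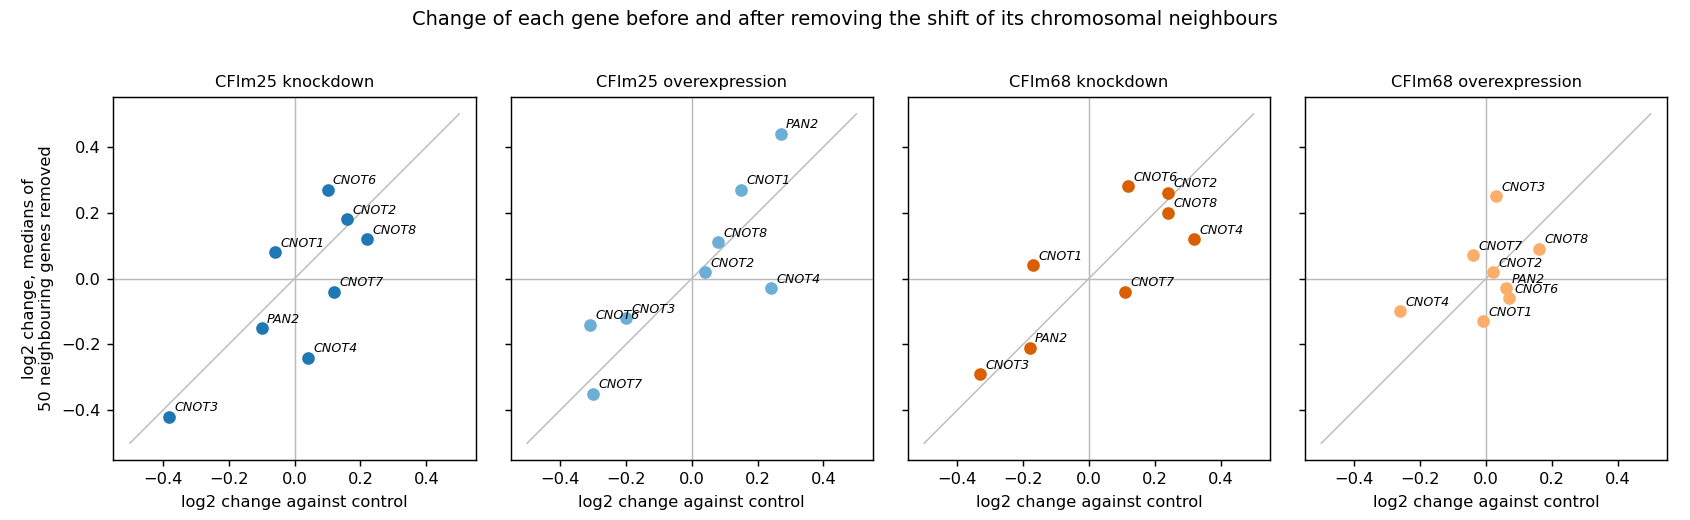
Log2 change against control (horizontal axis) and the same after the medians of 50 neighbouring genes were removed (vertical axis), 1 panel per perturbed group and 1 point per gene, with a diagonal of equal values. CNOT3 in the knockdowns and CNOT7 and PAN2 in CFIm25 overexpression keep their side, while CNOT4 drops from 0.24 to -0.03 in CFIm25 overexpression.

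Comparing the perturbed groups with each other leaves the control libraries out of the difference. Controls still enter the scaling and the shared spread of the fit to all libraries. The 2 knockdowns differed in CNOT4 alone, which was higher with CFIm68 knockdown (0.29 ± 0.09, edgeR adjusted p = 0.017), so that 1 of 8 genes was higher and 0 lower, against 11.1% and 13.2% of all tested genes. That call was lost without CFIm25 knockdown replicate 1 (edgeR adjusted p = 0.185) or CFIm68 knockdown replicate 3 (0.088). DESeq2 made the same single call, and the lowest unadjusted p-value among the 7 other genes was 0.064, that of CNOT1. CNOT1 passed as lower in a fit to those libraries alone (-0.11, edgeR adjusted p = 0.015). For CNOT3 the difference between the knockdowns was 0.05 ± 0.06, for CNOT2 0.08 ± 0.06 and for CNOT8 0.02 ± 0.06.

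The 2 overexpression groups differed in 6 of 8 genes. CFIm68 overexpression was higher in CNOT3, CNOT6 and CNOT7 and lower in CNOT1, CNOT4 and PAN2, against 32.9% and 30.8% of all tested genes. CNOT6 differed by 0.38 ± 0.06 (edgeR adjusted p = 1.5e-06) and CNOT7 by 0.26 ± 0.06 (edgeR adjusted p = 0.00035), with no overlap between the libraries of either gene. CNOT3 differed by 0.23 ± 0.06, CNOT4 by -0.50 ± 0.09 and PAN2 by -0.21 ± 0.07, also without overlap. With neighbouring medians removed, CNOT7 (0.42), CNOT3 (0.37), PAN2 (-0.46) and CNOT1 (-0.40) passed in the same direction, whereas CNOT6 (0.08, edgeR adjusted p = 0.30) and CNOT4 (-0.07, edgeR adjusted p = 0.55) did not. Without CFIm68 overexpression replicate 3, CNOT1 missed the threshold (-0.12, edgeR adjusted p = 0.071) from a value of -0.16 ± 0.05.

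Knockdown was then set against overexpression of the same subunit, which compares 5 libraries for CFIm25 and another 6 for CFIm68. With CFIm25, 2 genes were higher in knockdown (CNOT6 and CNOT7) and 3 lower (CNOT1, CNOT3 and PAN2), against 28.6% and 27.5% of all tested genes. CNOT6 was 1.33-fold higher (0.41 ± 0.06, edgeR adjusted p = 2.7e-06) and CNOT7 1.34-fold (0.42 ± 0.06, edgeR adjusted p = 2.2e-06), and PAN2 1.3-fold lower (-0.37 ± 0.08, edgeR adjusted p = 0.00017). Those 3 passed under all alternatives and with any of the 5 libraries left out, and PAN2 was at -0.59 with neighbouring medians removed. CNOT3 (-0.18 ± 0.06) missed the threshold without CFIm25 knockdown replicate 1 (-0.09, edgeR adjusted p = 0.34) or CFIm25 overexpression replicate 3 (-0.15, edgeR adjusted p = 0.071), and was at -0.30 with neighbouring medians removed. CNOT1 (-0.21 ± 0.06) missed it without that knockdown library (-0.18, edgeR adjusted p = 0.052).

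With CFIm68, 3 genes were higher in knockdown (CNOT2, CNOT4 and CNOT7) and 3 lower (CNOT1, CNOT3 and PAN2), against 33.7% and 33.5% of all tested genes. Among the 8 deadenylase genes CNOT4 had the largest difference, 1.5-fold (0.59 ± 0.09, edgeR adjusted p = 9.0e-07). That difference shrank to 0.22 with neighbouring medians removed (edgeR adjusted p = 0.029). CNOT3 was 1.28-fold lower in knockdown (-0.36 ± 0.06, edgeR adjusted p = 3.0e-06), and -0.54 with those medians removed. CNOT2 was higher by 0.22 ± 0.05 and PAN2 lower by -0.25 ± 0.07, and both passed under all alternatives. CNOT6 did not pass (0.05 ± 0.06), but reached 0.34 with neighbouring medians removed (edgeR adjusted p = 3.2e-05). CNOT1 turned from -0.16 ± 0.05 to 0.17 under that step (edgeR adjusted p = 0.014) and CNOT7 from 0.15 ± 0.06 to -0.10 (edgeR adjusted p = 0.094). CNOT7 also missed the threshold without CFIm68 knockdown replicate 1 or CFIm68 overexpression replicate 2 or 3 (0.13 each).

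**Figure D4:**
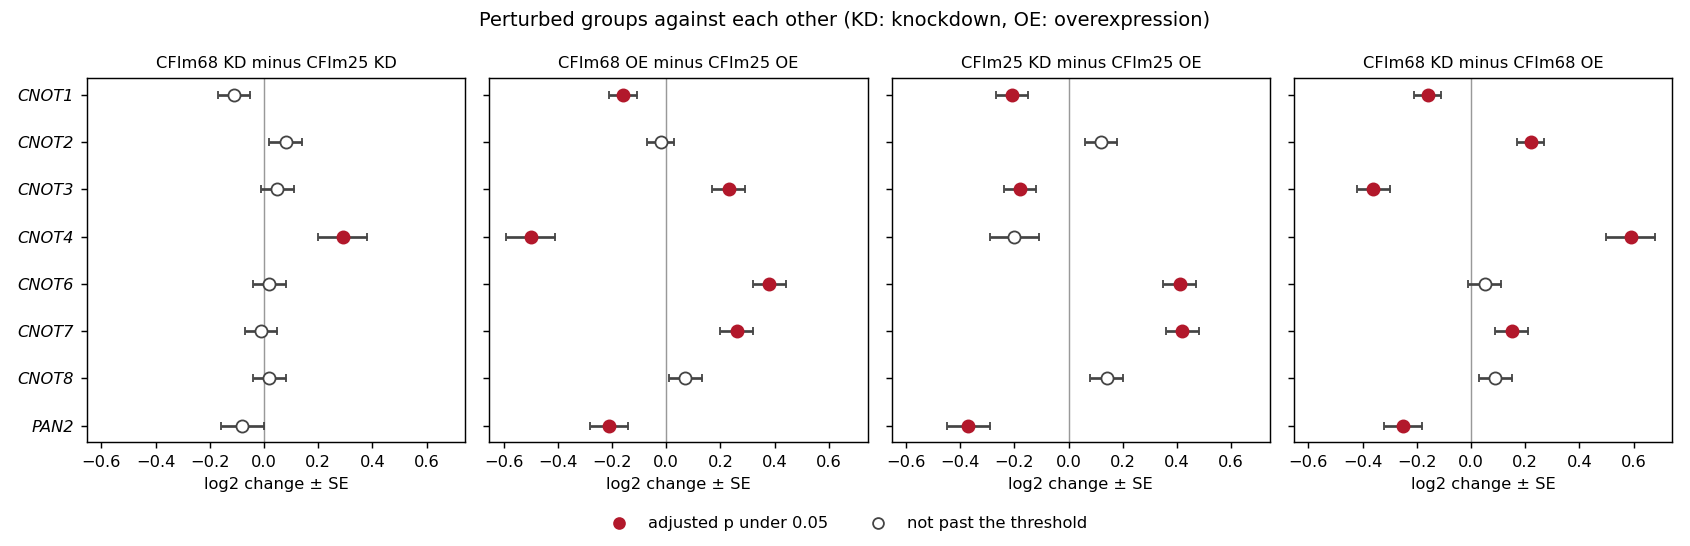
Log2 difference ± SE on the horizontal axis for the 8 genes in the comparisons between perturbed groups, with filled points for an edgeR adjusted p under 0.05. CNOT6 and CNOT7 lie at 0.41 and 0.42 in CFIm25 knockdown minus overexpression, and CNOT4 at 0.59 in the same difference for CFIm68.

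Counts over lists of related genes stand against the shares of all tested genes past the threshold in the same comparison. These were 24.4% higher and 23.2% lower with CFIm25 knockdown, 28.3% and 28.1% with CFIm68 knockdown, 27.7% and 29.1% with CFIm25 overexpression, and 14.5% and 15.4% with CFIm68 overexpression. No list was tested for a difference from them.

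The other subunits of CCR4-NOT are the module genes CNOT9, CNOT10 and CNOT11 and the associated gene TNKS1BP1. In CFIm25 knockdown 0 of the 4 rose and 1 fell, and in CFIm68 knockdown 0 passed with edgeR, 0 had an unadjusted p-value under 0.05 and 0 passed with DESeq2. With neighbouring medians removed, 2 passed in CFIm68 knockdown, CNOT10 at -0.34 (edgeR adjusted p = 0.0075, from -0.06) and CNOT9 at 0.14 (edgeR adjusted p = 0.043, from -0.10). The fall in CFIm25 knockdown was that of CNOT11, from 85.2 ± 3.52 CPM (SD, n = 3) to 70.2 ± 0.347 (SD, n = 2). Its log2 change there was -0.28 ± 0.06 (edgeR adjusted p = 0.00055). CFIm25 overexpression had 1 higher and 1 lower, and CFIm68 overexpression 1 and 1. Named after their values were seen, CNOT9, which binds recruiting proteins, fell in CFIm25 overexpression (-0.41 ± 0.06) and CNOT10 rose there (0.57 ± 0.10), from 10.1 ± 0.36 to 15.1 ± 1.27 CPM. With neighbouring medians removed both missed the threshold, at -0.02 and 0.17. CNOT10 shares exonic bases with SUGT1P2 on the same strand. In CFIm68 overexpression TNKS1BP1 rose (0.29 ± 0.06) and CNOT11 fell (-0.18 ± 0.06). The fall of CNOT11 was lost without control replicate 3 (-0.15) or CFIm68 overexpression replicate 2 (-0.16) or 3 (-0.14), and was 0.07 with neighbouring medians removed.

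Of 5 other genes listed by deadenylase nuclease family, PARN, NOCT, ANGEL1, ANGEL2 and PDE12, 1 rose and 0 fell in CFIm25 knockdown. In CFIm68 knockdown 1 rose and 2 fell, and in CFIm25 overexpression 3 rose and 0 fell. In CFIm68 overexpression 0 passed with edgeR, 0 with DESeq2 and 0 at an unadjusted p-value under 0.05. The list goes by family and not by measured activity. ANGEL2, of the same nuclease family as CNOT6, fell in CFIm68 knockdown from 13.5 ± 1.04 to 8.59 ± 0.998 CPM (-0.65 ± 0.11, edgeR adjusted p = 1.8e-05) and rose in CFIm25 overexpression to 19.1 ± 2.03 CPM (0.51 ± 0.11, edgeR adjusted p = 0.00019). The rise was 0.31 with neighbouring medians removed. In CFIm25 overexpression 27.7% of all tested genes rose and 29.1% fell.

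Genes of proteins that bring CCR4-NOT to its targets spanned log2 changes of -0.42 to 0.58 in CFIm25 knockdown and -0.64 to 1.04 in CFIm68 knockdown. Of 18 listed, 17 were tested: 3 rose and 5 fell with CFIm25 knockdown, 6 and 4 with CFIm68 knockdown, 2 and 6 with CFIm25 overexpression, and 2 and 2 in CFIm68 overexpression. Of all tested genes 28.3% rose and 28.1% fell with CFIm68 knockdown. BTG1, an antiproliferative protein that binds CNOT7 and CNOT8, fell in CFIm68 knockdown from 160 ± 4.11 to 102 ± 7.72 CPM (-0.64 ± 0.06, edgeR adjusted p = 8.2e-10). In CFIm25 overexpression BTG1 rose to 281 ± 11.2 CPM (0.81 ± 0.06, edgeR adjusted p = 6.7e-12), and in CFIm25 knockdown it was at 158 ± 17.8 CPM (-0.02 ± 0.07). BTG3, of the same family, rose in CFIm25 knockdown from 118 ± 3.54 to 177 ± 10.2 CPM (0.58 ± 0.06, edgeR adjusted p = 2.3e-08). BTG3 also rose in CFIm68 knockdown (0.22 ± 0.06), a call lost with neighbouring medians removed (0.07), and fell in CFIm25 overexpression (-0.30 ± 0.06). The cytoplasmic polyadenylation element binding genes CPEB2 and CPEB4 rose in CFIm68 knockdown, CPEB2 from 5.0 ± 1.49 to 10.3 ± 0.843 CPM (1.04 ± 0.15) and CPEB4 from 10.9 ± 1.21 to 19.6 ± 0.531 CPM (0.84 ± 0.09, edgeR adjusted p = 1.6e-08). In CFIm25 knockdown CPEB4 rose by 0.29 ± 0.11, a call lost without control replicate 1 (0.29, edgeR adjusted p = 0.0555), control replicate 3 (0.22) or CFIm25 knockdown replicate 1 (0.25).

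Among 11 tested genes of poly(A) binding and tail extension, 4 rose and 2 fell with CFIm25 knockdown, 5 and 1 with CFIm68 knockdown, 4 and 0 with CFIm25 overexpression, and 1 and 2 in CFIm68 overexpression. Of all tested genes 28.3% rose with CFIm68 knockdown and 27.7% with CFIm25 overexpression. PABPC1, the main cytoplasmic poly(A)-binding protein, rose from 1130 ± 26.6 CPM in control to 1430 ± 43.3 in CFIm25 knockdown (0.34 ± 0.05) and 1370 ± 38.3 in CFIm68 knockdown (0.28 ± 0.04). It rose in CFIm25 overexpression as well (0.24 ± 0.04, and 0.45 with neighbouring medians removed) and fell to 914 ± 22.2 CPM in CFIm68 overexpression (-0.31 ± 0.04, edgeR adjusted p = 5.0e-06).

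Of 12 genes of decapping and decay from the 5' end, 4 rose and 2 fell with CFIm25 knockdown, 6 and 1 with CFIm68 knockdown, and 2 and 2 with CFIm25 overexpression. Of all tested genes 28.3% rose with CFIm68 knockdown. In CFIm68 overexpression 0 passed with edgeR, 0 with DESeq2 and 0 at an unadjusted p-value under 0.05. DCP2, the decapping enzyme, rose in CFIm68 knockdown from 4.43 ± 0.479 to 7.88 ± 1.12 CPM (0.83 ± 0.15, edgeR adjusted p = 2.8e-05). Its rise in CFIm25 knockdown (0.41 ± 0.17, edgeR adjusted p = 0.048) was lost without any 1 of the 5 libraries (0.32 to 0.46), with DESeq2, with the replicate number as a block (0.37, edgeR adjusted p = 0.059) and with neighbouring medians removed (0.25, edgeR adjusted p = 0.24). EIF4ENIF1, which encodes the eIF4E transporter, rose in CFIm25 knockdown from 2.74 ± 0.083 to 4.34 ± 0.297 CPM (0.67 ± 0.18, edgeR adjusted p = 0.0031) and missed the threshold without its replicate 2 (0.59, edgeR adjusted p = 0.054). Of 14 tested genes of the exosome and the SKI complex, 4 rose and 4 fell with CFIm25 knockdown, 3 and 5 with CFIm68 knockdown, 6 and 3 with CFIm25 overexpression, and 2 and 1 in CFIm68 overexpression, against 24.4% and 23.2% of all tested genes in the first of these. SKIC8, an SKI subunit at 1.39 ± 0.37 CPM in control, rose in CFIm25 knockdown (0.58 ± 0.24, edgeR adjusted p = 0.047), a call lost with DESeq2 (adjusted p = 0.12), with neighbouring medians removed (0.47, edgeR adjusted p = 0.11), without control replicate 2 (0.38) or 3 (0.64), and without CFIm25 knockdown replicate 1 (0.65) or 2 (0.49).

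**Figure D5:**
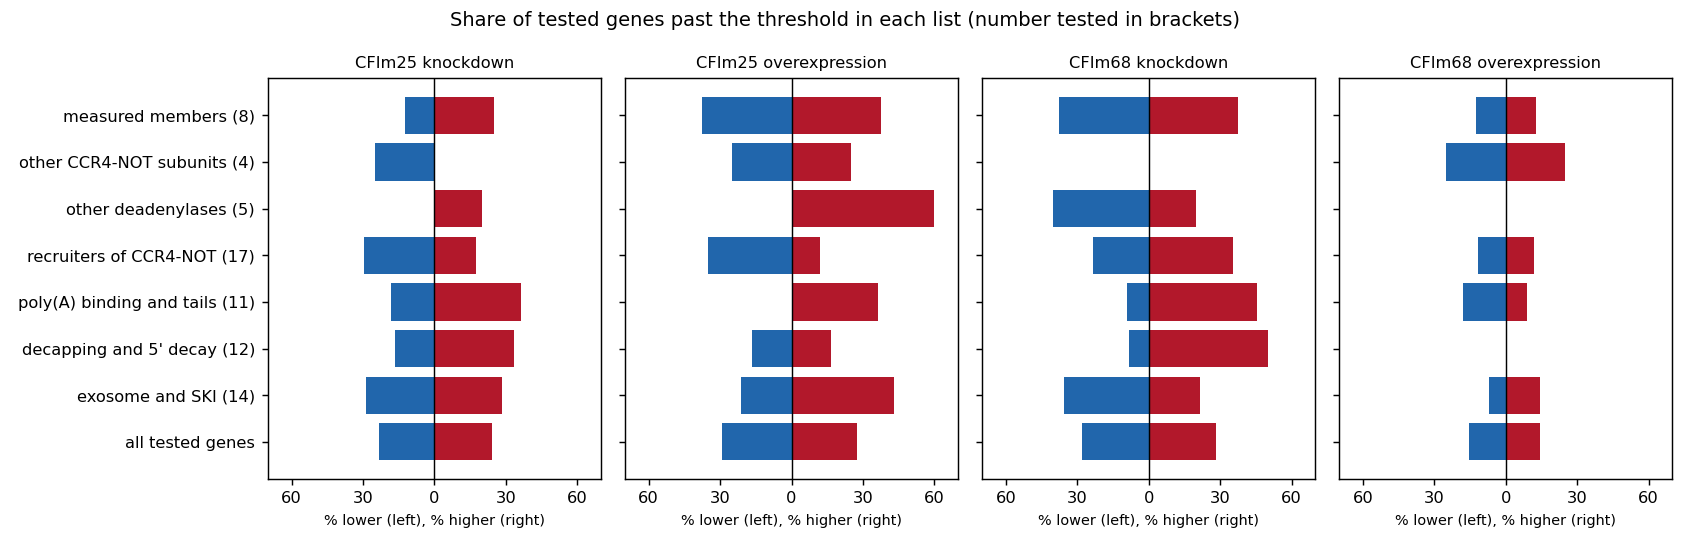
Horizontal bars give the percent of tested genes of each list that were lower (left, blue) or higher (right, red) than control at an edgeR adjusted p under 0.05, 1 panel per perturbed group, with all tested genes in the lowest row. The top row holds the 8 deadenylase genes, and the lowest row gives 28.3% higher and 28.1% lower in CFIm68 knockdown.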

How the data were processed

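The authors' deposited table holds raw read counts per Ensembl gene for 14 HEK 293 libraries. The submitters' processing notes name cutadapt 1.16, STAR 2.7.1a and hg38. No counting tool, annotation or strand setting is named there. Libraries were made with a stranded mRNA kit, per the labels' protocols.

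The tests used edgeR 4.0.16 (R 4.3.3) on the deposited counts: filterByExpr (minimum count 10, minimum total 15), TMM scaling, a quasi-likelihood fit to all 14 libraries with a coefficient for each group, and Benjamini-Hochberg adjustment over the 12080 tested genes of each of 8 comparisons, with a threshold of 0.05. The steps were also run on simulated data in which few genes changed. That run does not measure error rates under changes as wide as those seen here. SEs come from the quasi-likelihood statistic. Precision depends on the library totals of 15822467 to 33895308 counts and on the spread between libraries. Gene positions, exons and transcripts are those of GENCODE 29.

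All members are named. Of the other lists, genes past the threshold with a log2 change of at least 0.5 in a knockdown, or else the gene with the smallest adjusted p, are named. The members and lists were chosen with earlier results of these data known. Alternatives were DESeq2 1.42.0, its size factors in edgeR, no filter, the replicate number as a block, the compared groups alone, medians of 50 neighbouring genes removed as an offset, and leaving out each library. Of 26 same-numbered pairs of libraries from different groups, 11 had deviations from the group means correlated at over 0.1. All 3 pairs did so between control and CFIm68 overexpression (0.191, 0.112 and 0.136). So did both pairs of CFIm25 knockdown with CFIm25 overexpression (0.208 and 0.166). Between the overexpression groups, replicates 1 and 3 reached 0.401 and 0.309, and replicate 2 only 0.015. By that threshold the numbers were taken to pair control with CFIm68 overexpression, and may pair other groups, from the data and not from the labels. The pairing is not settled, since control replicate 2 and CFIm68 overexpression replicate 3 reached 0.113. P-values of the main fit do not take pairing into account, and the replicate block is given as an alternative. Figures used matplotlib 3.10.9.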

Additional observations from a re-analysis of the deposited data

Results flagged for a closer look

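Effects of the same kind of perturbation, measured against the same controls, differed between the subunits for 6 of the 8 genes, by the direct edgeR contrast with Benjamini-Hochberg adjustment. Between the overexpression groups (CFIm68 minus CFIm25), CNOT6 differed by 0.38 on the log2 scale (adjusted p = 1.5e-06), with all 3 CFIm68 libraries above all 3 CFIm25 libraries, but by 0.08 with the medians of neighbouring genes removed (edgeR adjusted p = 0.30). CNOT4 differed by -0.50 (edgeR adjusted p = 2.0e-05), without overlap, and by -0.07 with those medians removed (edgeR adjusted p = 0.55). CNOT7 differed by 0.26 (edgeR adjusted p = 0.00035), CNOT3 by 0.23 (edgeR adjusted p = 0.001), PAN2 by -0.21 (edgeR adjusted p = 0.01) and CNOT1 by -0.16 (edgeR adjusted p = 0.01), each without overlap between the libraries. Between the knockdowns, CNOT4 was 0.29 higher with CFIm68 (edgeR adjusted p = 0.017), a call lost without CFIm25 knockdown replicate 1 (0.23) or CFIm68 knockdown replicate 3 (0.24). CNOT1 also missed the threshold between the overexpression groups without CFIm68 overexpression replicate 3 (-0.12). The share of all tested genes that differ between the overexpression groups is of the same order (32.9% higher, 30.8% lower). Groups of at most 3 libraries were not examined for a library that stands apart.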

How the results depend on the processing

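Of 35 calls among 64 tests of the 8 genes, 34 were made with median-ratio size factors, 34 without the filter, 34 with DESeq2, 34 in fits to the compared groups alone, 35 with replicate numbers as a block, and 23 in the same direction with medians of 50 neighbouring genes removed. The replicate block added 2 calls (CNOT6 at 0.12 and CNOT7 at 0.11 in CFIm68 knockdown), fits to the compared groups added 3 (these 2 genes and CNOT1 between the knockdowns), and removing neighbouring medians added 5, besides CNOT4 in CFIm25 knockdown. Number of called genes: in CFIm25 overexpression it went from 6 to 3 with neighbouring medians removed. In CFIm68 overexpression it went from 2 to 1 with median-ratio size factors, without the filter, with DESeq2 and in the fit to 2 groups, where CNOT4 was left. The number was also 1 with neighbouring medians removed, but there CNOT3 (0.25) passed and both CNOT4 and CNOT8 were lost. Without single libraries it was between 0 and 1. Between the knockdowns it went from 1 to 2 in the fit to 2 groups, and to between 0 and 1 without single libraries. For CFIm25 knockdown against overexpression it went from 5 to between 3 and 6 without single libraries. With the replicate block it was 8 in place of 6 in CFIm68 knockdown, as in the fit to 2 groups, and equal in the other comparisons. Some values of the named genes that passed the threshold in either fit changed direction once neighbouring medians were removed. For CFIm68 knockdown against control, CNOT1 became 0.04 and CNOT9 became 0.14. Set against CFIm68 overexpression, the same knockdown gave 0.17 for CNOT1 and -0.10 for CNOT7. CNOT10 turned there from 0.19 to -0.26 (edgeR adjusted p = 0.041). CNOT4 took values of -0.24 with CFIm25 knockdown and -0.03 with overexpression of that subunit. CNOT11 reached 0.07 with CFIm68 overexpression. PABPC1 turned from 0.1 to -0.21 between CFIm25 knockdown and overexpression (edgeR adjusted p = 0.00084). Values that passed in neither fit also changed sign, under this and other settings. The cause was not tested. Leaving out a CFIm25 knockdown library leaves 1, which is assumed to vary like the other groups. Low counts limit the precision for CNOT4 among the 8 genes, and for other named genes of lower CPM.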

Other observations

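The level of CNOT8 relative to its paralog CNOT7 does not depend on library scaling, and was looked at after the values were seen. CNOT8 stood at 19.9, 23.1 and 21.1% of the CPM of CNOT7 in control, and at 26.7, 27.6 and 29.3% in CFIm25 overexpression. CFIm25 knockdown gave 22.1 and 23.7%, CFIm68 knockdown 22.5, 23.8 and 23.7%, and CFIm68 overexpression 23.1, 25.7 and 24.7%. All 3 CFIm25 overexpression libraries lie above the other 11. An exact two-sided permutation test against control gave p = 0.1 for each overexpression group, the smallest that 3 against 3 libraries allow. The same test gave 0.2 for CFIm68 knockdown and 0.4 for CFIm25 knockdown against control, and 0.1 between the overexpression groups. A ratio chosen from its values gives these tests no independent weight. Counts are not divided by length here, so the percentages compare libraries and not the amounts of the 2 transcripts.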
